A study of Homo sapiens with 12 samples.

Results

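Cyclins are proteins whose levels or activity mark phases of the cell's life, and cyclin-dependent kinases (CDKs) are the enzymes they switch on. CDK4 and CDK6 with D cyclins and CDK2 with E and A cyclins drive entry into and passage through DNA replication, and CDK1 with A and B cyclins drives mitosis. A further branch of the family holds CDK7, CDK8, CDK9, CDK12 and CDK13 and the C, H, K and T cyclins. It works mainly on RNA polymerase II and the Mediator complex, and its split from the cell cycle branch is not strict. Small proteins such as p27 (CDKN1B) and p18 (CDKN2C) bind and block the cell cycle kinases.

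Described here are 42 genes of this family in TC-71, an established human Ewing sarcoma line; most such tumours carry the EWS-FLI1 fusion oncoprotein. The genes were taken by symbol from the deposited expression table: 4 cell cycle kinases, 8 cell cycle cyclins, 5 inhibitors including 1 phosphatase, 9 transcriptional kinases, 7 transcriptional cyclins, 6 other kinases and 3 other cyclins. They match 42 of the 25787 entries of the table that carry a symbol. All 42 passed the minimum mean of 10 over the 12 libraries, as did 14225 genes in all.

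The 4 groups had 3 libraries each, labelled as biological replicates. YK-4-279, a compound designed to keep EWS-FLI1 apart from the RNA helicase DHX9, was given for 16 hours at a dose the labels give as 2 mM, and its control was DMSO for the same time. Whether a micromolar dose was meant cannot be settled from the labels. Cells labelled siDHX9 had DHX9 knocked down, and their control was a scrambled sequence; both were reverse-transfected in 2 pulses with Lipofectamine RNAiMAX and collected at 48 hours. The transfection protocol speaks of siRNAs and the series' design text of shRNAs. The YK-4-279 and DMSO cells are labelled wild type. Every group is the same single cell line, so p-values measure the spread between cultures.

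Libraries held 48.3 to 53.7 (in units of 1e6 reads) with YK-4-279, 38.6 to 65.5 with DMSO, 46.9 to 49.4 with siDHX9 and 47.8 to 51.0 with the scrambled control. Reads carried no molecular identifiers, so depth bounds counting error only. The deposited values are counts normalised for library depth, called counts here, and they are not per length, so levels are compared between samples and not between genes. DHX9, in 1 entry with its neighbour NPL, had 19342, 21178 and 21304 counts in siDHX9 cells and 30287, 33422 and 34357 in scrambled cells. The Ewing sarcoma markers NR0B1, NKX2-2, CD99 and STEAP1 were present in all libraries. So was EWSR1, whose entry does not show whether the fusion is present. By contrast, PECAM1 and DES had at most 2.01 counts, PTPRC at most 9.02 and EPCAM at most 18.0. Of the stromal markers, COL1A1 had 1287 to 1399.6 counts with YK-4-279 and 1308 to 1333 with DMSO, and 1559.7 to 2109 with siDHX9 and 1296 to 1636 with the scrambled control. ACTA2 had 288 to 317 counts with YK-4-279 and 194 to 211 with DMSO, and 407 to 575 with siDHX9 and 228 to 422 with the scrambled control; the part of these markers in the results was not tested. The ribosomal RNA entry took 7.90 to 9.98% of reads with YK-4-279 and 4.95 to 5.44% with DMSO, and 1.76 to 3.59% with siDHX9 and 3.52 to 5.20% with the scrambled control; its part in the results was not tested. siDHX9 replicate 2 stood apart: its chi-square per degree of freedom against the other siDHX9 libraries was 65.6 and 92.8, against 29.6 between those other libraries. In bulk RNA, fewer cells in a phase of the cycle and less RNA per cell cannot be told apart.

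With YK-4-279, 14 of the 42 genes passed the test, 4 higher and 10 lower, where 13.8% of all genes passed (7.33% higher and 6.49% lower). Counted by libraries instead, 12 genes had all YK-4-279 values above all DMSO values and 14 had them below, where 23.2% and 20.4% of all genes did. CDK1 fell 3.86-fold, cyclin E2 2.12-fold and cyclin F 1.83-fold, while the mitotic cyclins CCNB1 and CCNB2 did not fall. Of the 12 cell cycle kinases and cyclins, 1 was higher and 6 were lower, with a median log2 fold change of -0.30 and a median absolute change of 0.48. Of the 16 transcriptional kinases and cyclins, 1 was higher and 3 were lower, with a median of -0.02 and a median absolute change of 0.18. Over all genes tested the median was 0.02 and the median absolute change 0.21. The difference between the 2 branches was not tested. A fold change is on the scale of log2(count + 1), its error is a standard error (SE), and adjusted p is that of limma with Benjamini-Hochberg adjustment over the 14225 genes, called at under 0.05.

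**Figure D1:**
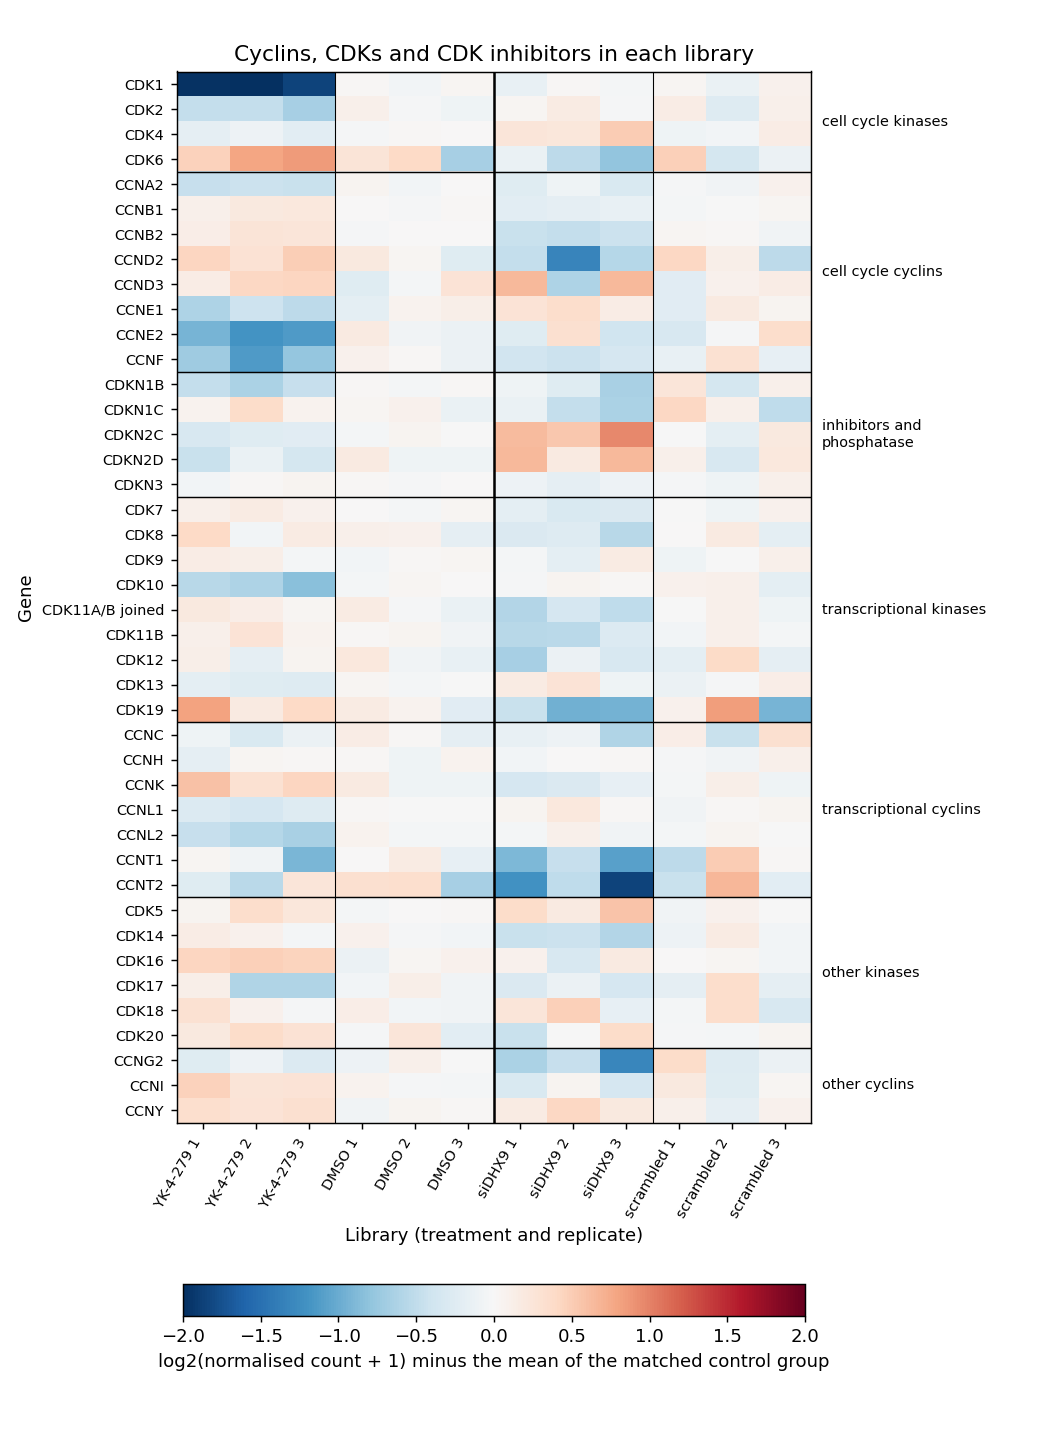
Each row is a gene, each column a library, and the colour is log2(count + 1) minus the mean of the matched control group (DMSO for YK-4-279, scrambled for siDHX9). CDK1 is lower in all 3 YK-4-279 libraries and close to its control in all 3 siDHX9 libraries.

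CDK1, the kinase that starts mitosis, moved most of all 42 genes with YK-4-279. In hg19 the table places it at chr10:62538089-62554608. It had 1332, 1304 and 1446 counts with YK-4-279, against 5303, 5028 and 5414 with DMSO. The groups are far apart, and each lies within a narrow band. The log2 fold change was -1.95 ± 0.08, with an adjusted p of 1.41e-08 in limma. With siDHX9 it had 4339, 4865 and 4668 counts, against 4957, 4378 and 5098 with the scrambled control. Those groups overlap, the log2 fold change was -0.06 ± 0.08 with a 95% interval of -0.23 to 0.12, and the adjusted p was 0.663 in limma.

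CDK1's partners did not move with it as a block. Cyclin A2, which pairs with CDK2 in replication and with CDK1 on the way to mitosis, had 3459.9, 3543 and 3533 counts with YK-4-279 and 4959.9, 4616 and 4795 with DMSO. It was lower in all 3 treated libraries, by -0.45 ± 0.07 on the log2 scale (adjusted p 0.00183, limma). The CCNA2 entry shares 578 bases with that of EXOSC9, so reads could be shared. Cyclin B1, the main mitotic partner of CDK1, had 22277, 23920 and 24147 counts with YK-4-279 and 20953, 20382 and 21150 with DMSO. Its treated libraries were all above the control libraries, but the log2 difference of 0.17 ± 0.06 missed the threshold (adjusted p 0.0731, limma). Cyclin B2 (hg19 chr15:59397284-59417249), another B cyclin of mitosis, had 7353, 8020.3 and 7954 counts with YK-4-279 and 6665, 6805 and 6759 with DMSO. Those groups did not overlap, and the log2 fold change was 0.20 ± 0.06 at an adjusted p of 0.0479 in limma, close to the threshold. The CCNB2 call was lost on leaving out any single YK-4-279 or DMSO library (adjusted p 0.0580 to 0.175), siDHX9 replicate 1 (0.0633) or scrambled replicate 1 (0.0576). It was also lost with TMM factors (0.0726), quantile normalisation (0.124), edgeR (0.0738), a block for the replicate number (0.08) or no minimum mean (0.0523).

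The promoters of these 4 genes are shown because CDK1 and CCNA2 fell with YK-4-279 and the B cyclins did not. Genes of the late cell cycle often carry a cell cycle homology region (CHR), read by the DREAM and B-MYB complexes, and CCAAT boxes, read by NF-Y. Each window runs from 250 bases before to 50 bases after a transcription start in RefSeq (GRCh38.p14, another build than the table's hg19), on the gene's own strand. Capitals mark CHR letters (TTTGAA or TTTAAA or TTCGAA) and CCAAT on either strand. The windows are chr10:60778081-60778380 (+) and chr10:60778228-60778527 (+) for CDK1, which overlap, chr4:121823834-121824133 (-) for CCNA2, chr5:69166900-69167199 (+) for CCNB1 and chr15:59104896-59105195 (+) for CCNB2.
CDK1 start 1: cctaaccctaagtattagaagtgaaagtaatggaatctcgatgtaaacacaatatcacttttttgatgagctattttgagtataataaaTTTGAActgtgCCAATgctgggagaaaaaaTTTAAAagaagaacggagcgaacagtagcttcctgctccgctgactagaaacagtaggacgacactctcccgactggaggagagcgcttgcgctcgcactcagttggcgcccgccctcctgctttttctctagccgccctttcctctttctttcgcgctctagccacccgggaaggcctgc
CDK1 start 2: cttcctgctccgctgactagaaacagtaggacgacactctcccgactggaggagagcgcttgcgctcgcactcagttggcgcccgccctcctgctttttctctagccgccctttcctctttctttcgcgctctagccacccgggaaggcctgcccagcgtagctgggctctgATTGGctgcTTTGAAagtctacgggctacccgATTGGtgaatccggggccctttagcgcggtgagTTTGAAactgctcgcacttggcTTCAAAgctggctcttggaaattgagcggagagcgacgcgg
CCNA2: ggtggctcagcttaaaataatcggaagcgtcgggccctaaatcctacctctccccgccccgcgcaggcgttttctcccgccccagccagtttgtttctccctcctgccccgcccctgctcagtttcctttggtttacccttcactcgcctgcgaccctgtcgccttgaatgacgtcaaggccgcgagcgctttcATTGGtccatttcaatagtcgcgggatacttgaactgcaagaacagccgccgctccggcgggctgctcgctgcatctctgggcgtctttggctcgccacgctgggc
CCNB1: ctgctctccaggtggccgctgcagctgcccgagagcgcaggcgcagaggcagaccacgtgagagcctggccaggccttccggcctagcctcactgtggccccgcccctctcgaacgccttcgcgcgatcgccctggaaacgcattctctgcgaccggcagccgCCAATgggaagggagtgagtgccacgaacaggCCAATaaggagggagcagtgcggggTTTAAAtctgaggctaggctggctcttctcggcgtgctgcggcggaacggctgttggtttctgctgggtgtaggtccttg
CCNB2: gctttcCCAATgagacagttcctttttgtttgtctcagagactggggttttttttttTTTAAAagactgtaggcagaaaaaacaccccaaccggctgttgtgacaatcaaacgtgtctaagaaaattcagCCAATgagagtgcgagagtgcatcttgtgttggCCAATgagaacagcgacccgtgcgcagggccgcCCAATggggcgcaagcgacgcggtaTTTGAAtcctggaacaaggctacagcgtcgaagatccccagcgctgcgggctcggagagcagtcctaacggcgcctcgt
Both CDK1 windows and both B cyclin windows hold CHR letters and CCAAT. The CCNA2 window holds CCAAT on the reverse strand and none of the 3 CHR spellings searched. Other spellings were not searched, so this does not show that CCNA2 lacks a CHR. CHR letters occur in 6 of 13 windows of cell cycle kinases and cyclins, in 5 of 22 windows of transcriptional ones and in 25.1% of the 35116 promoters in the table. CCAAT occurs in 8 of 13, in 7 of 22 and in 34.6% of all. Genes with several starts have several windows, so these are counts of windows and not of genes. The 6 and the 8 each include both CDK1 windows, and the 8 include more than 1 window of CCND3. The E2F spellings TTTCGCGC and TTTGGCGC and TTCCCGCC, on either strand, occur in 2 of 13, in 2 of 22 and in 4.24% of all. The 2 of 13 are the overlapping CDK1 windows, which hold the same TTTCGCGC site, so CDK1 is the only cell cycle gene there. A match is a description of letters and not of binding.

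**Figure D2:**
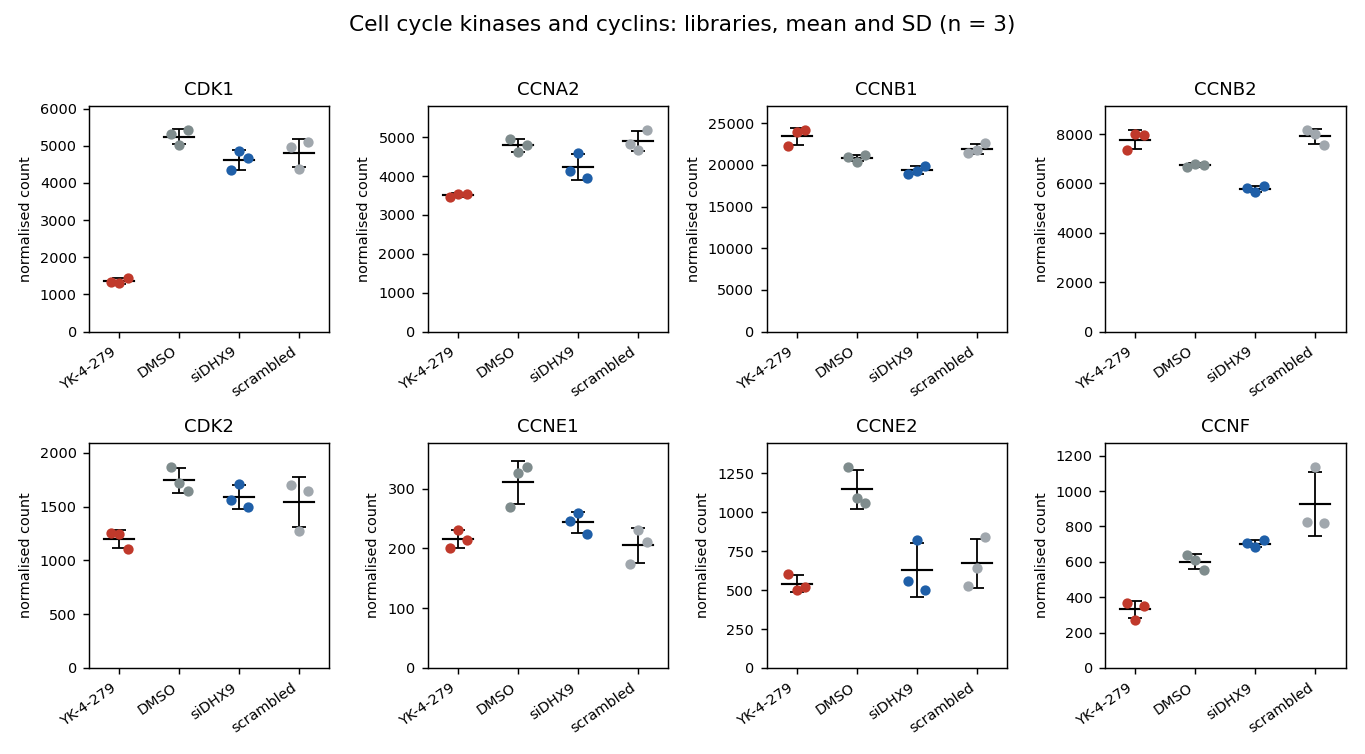
Counts of 8 cell cycle genes (y axis, normalised count from 0) in each library of the 4 groups, with the mean and SD (n = 3) as bars. CDK1, CCNA2, CDK2, CCNE1, CCNE2 and CCNF lie lower with YK-4-279 than with DMSO, and CCNB1 and CCNB2 do not.

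CDK2 and its E cyclins, which act at the entry into replication, were lower with YK-4-279. CDK2 had 1253, 1248 and 1104 counts with YK-4-279 and 1871, 1722 and 1642 with DMSO. All treated libraries were below all controls, and the log2 fold change was -0.54 ± 0.11 (adjusted p 0.00691, limma). The gene lies inside the span of a low entry, PMEL, so reads could be shared between them. Cyclin E2, a partner of CDK2, had 601, 499.7 and 519.8 counts with YK-4-279 and 1291, 1092 and 1057 with DMSO. Its entry shares 260 bases with that of INTS8, so reads could be shared here too. Again no library overlapped, and the log2 fold change was -1.08 ± 0.19 (adjusted p 0.00235, limma). Its relative cyclin E1 had 201, 231 and 214 counts with YK-4-279 and 269, 326 and 336 with DMSO. That log2 fold change was -0.52 ± 0.14 (adjusted p 0.0280, limma); leaving out any of the YK-4-279 libraries, or DMSO replicate 2 or 3, raised the adjusted p to between 0.0569 and 0.0998.

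Cyclin F (CCNF, hg19 chr16:2479392-2508859), which recognises substrates for a ubiquitin ligase and does not switch on a CDK, had 368, 273 and 352 counts with YK-4-279 and 636, 612 and 555 with DMSO. The treated libraries were all lower, with a log2 fold change of -0.87 ± 0.14 (adjusted p 0.00158, limma). p27 (CDKN1B), the inhibitor of CDK2 complexes, had 2835, 2531 and 2870.1 counts with YK-4-279 and 3983, 3842 and 3987 with DMSO. It fell by 1.44-fold (log2 -0.52 ± 0.15, adjusted p 0.0347, limma), a call lost on leaving out any single YK-4-279 or DMSO library, at up to 0.130. The CDK1, CCNA2, CCNE2, CCNF and CDK2 calls were kept under every alternative run.

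CDK4 and CDK6, the kinases of the D cyclins, and cyclins D2 and D3 did not pass the test with YK-4-279. Cyclin D1 (CCND1), which is not among the 42 genes, was higher, at 0.47 ± 0.09 (adjusted p 0.00382, limma). CDK4 had 14676, 15594 and 14429 counts with YK-4-279 and 16356, 16879 and 16760 with DMSO. Its treated libraries were lower without overlap, at a log2 difference of -0.16 ± 0.09 (adjusted p 0.222, limma). CDK6 was near the low end of the table, with 62.7, 78.4 and 82.6 counts with YK-4-279 and 54.5, 59.6 and 28.2 with DMSO. The log2 difference was 0.70 ± 0.31 (adjusted p 0.154, limma), with 1 DMSO library well below the other two. Cyclin D2 (CCND2) had 116, 105 and 121 counts with YK-4-279 and 98.5, 88.4 and 71.9 with DMSO. It did not overlap but missed the threshold too, at 0.40 ± 0.26 (adjusted p 0.331, limma). Cyclin D3 overlapped between the groups, at 0.33 ± 0.26. The remaining inhibitors, CDKN1C, CDKN2C and CDKN2D, and the phosphatase CDKN3 had log2 differences between -0.31 and 0.17, none called. In the fit with only the YK-4-279 and DMSO libraries, 7 more of the 42 genes passed. Calls over all 14225 genes also rose there, from 1965 to 4270. CDK4 (0.0163), CDKN2C (0.00577) and CDK13 (0.00533) were lower there, and CCNB1 (0.0128), CCND3 (0.0430), CCNI (0.00351) and CDK5 (0.0498) higher (adjusted p, limma). CDK4 passed with quantile normalisation too (0.0318), and CCNB1 without siDHX9 replicate 3 (0.0374).

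**Figure D3:**
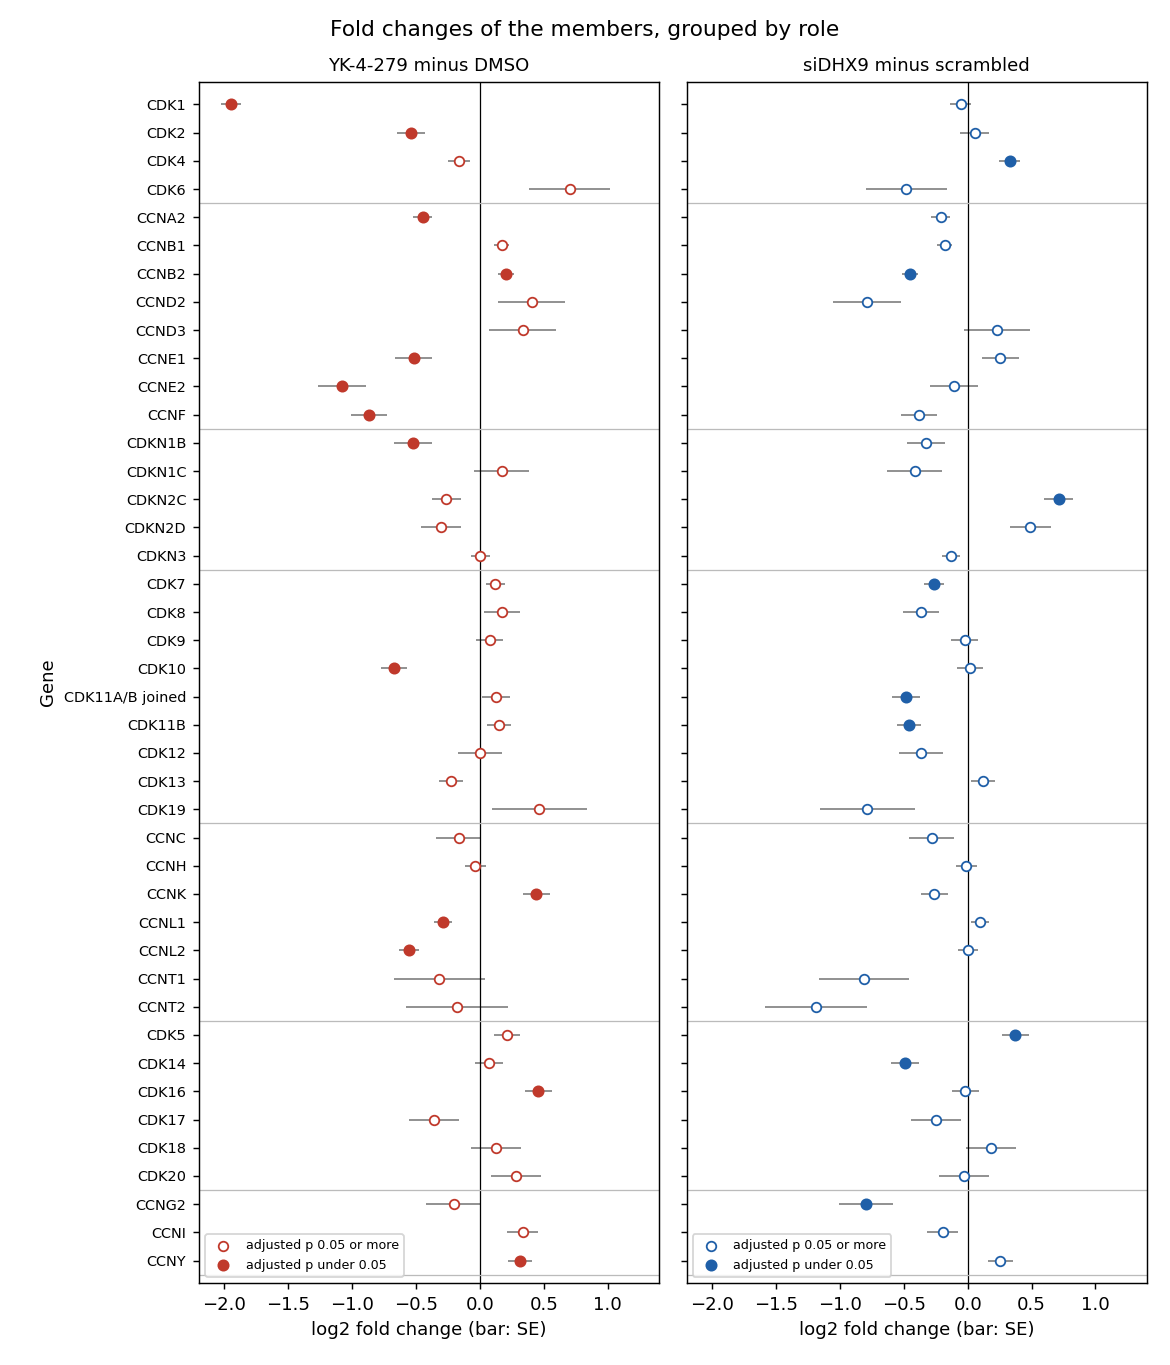
Log2 fold change (x axis) of the 42 genes (rows, grouped by role) with YK-4-279 against DMSO at the left and with siDHX9 against scrambled at the right; bars are SE and filled points have a limma adjusted p under 0.05. The CDK1 fall of -1.95 at the left has no counterpart at the right, where it is -0.06.

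In the transcriptional branch 12 of 16 genes were not called with YK-4-279, and the 4 that passed were CCNK, higher, and CDK10, CCNL1 and CCNL2, lower. Cyclin K, the partner of CDK12 and CDK13, had 1817, 1486 and 1629 counts with YK-4-279 and 1362, 1139 and 1132 with DMSO. It was higher in all 3 treated libraries, by 0.44 ± 0.10 (adjusted p 0.0144, limma), and the call was lost without YK-4-279 replicate 1 (0.0701), DMSO replicate 2 (0.0674) or DMSO replicate 3 (0.0618). Its entry shares part of its span with CCDC85C, so reads could be shared. CDK10 (hg19 chr16:89753076-89762771), a kinase that pairs with cyclin M, had 731, 702 and 600.4 counts with YK-4-279 and 1050.5, 1102 and 1082 with DMSO. It fell by 1.60-fold without overlap (log2 -0.67 ± 0.10, adjusted p 0.00107, limma).

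The L cyclins, which pair with CDK11 and are tied to RNA splicing, were lower together. CCNL2 had 2409, 2232 and 2113 counts with YK-4-279 and 3481, 3231 and 3217 with DMSO, a log2 fold change of -0.56 ± 0.08 (adjusted p 0.000621, limma). CCNL1 had 4202, 4024 and 4250.3 counts with YK-4-279 and 5171, 5062 and 5046 with DMSO, a log2 fold change of -0.29 ± 0.07 (adjusted p 0.0159, limma). In neither gene did the libraries overlap. The CCNL1 call was lost without YK-4-279 replicate 2 (0.0776), DMSO replicate 1 (0.0674) or DMSO replicate 2 (0.0553), while those of CDK10 and CCNL2 were kept under every alternative run.

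The kinases that act directly on RNA polymerase II were not called with YK-4-279. CDK7, of the general factor TFIIH, had 1734, 1819 and 1722 counts with YK-4-279 and 1626, 1570 and 1655 with DMSO, a log2 difference of 0.12 ± 0.08 (adjusted p 0.314, limma). CDK9, the elongation kinase of P-TEFb, had 873, 859.6 and 768 counts with YK-4-279 and 757, 806 and 809 with DMSO. The 95% interval of the CDK9 difference, -0.15 to 0.30 on the log2 scale, bounds what could be missed. CDK12, which keeps long genes transcribed, had 765, 621 and 729 counts with YK-4-279 and 817, 669 and 637 with DMSO, with an interval of -0.37 to 0.37. CDK8, of the Mediator, had 771, 558 and 655 counts with YK-4-279 and 625, 616 and 512 with DMSO, with an interval of -0.13 to 0.47. These 3 overlapped with their controls, whereas all CDK7 values were above DMSO. Cyclin T1, the usual partner of CDK9, is counted too sparsely to say more, with 28.1, 26.1 and 14.1 counts with YK-4-279 and 27.6, 30.8 and 24.4 with DMSO. The CCNT1 entry shares 12747 bases with that of KANSL2, so reads could be shared. The uncalled CDK11B, the joined CDK11A and CDK11B entry, CDK13, CDK19, CCNC, CCNH and CCNT2 lay between -0.23 and 0.46.

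**Figure D4:**
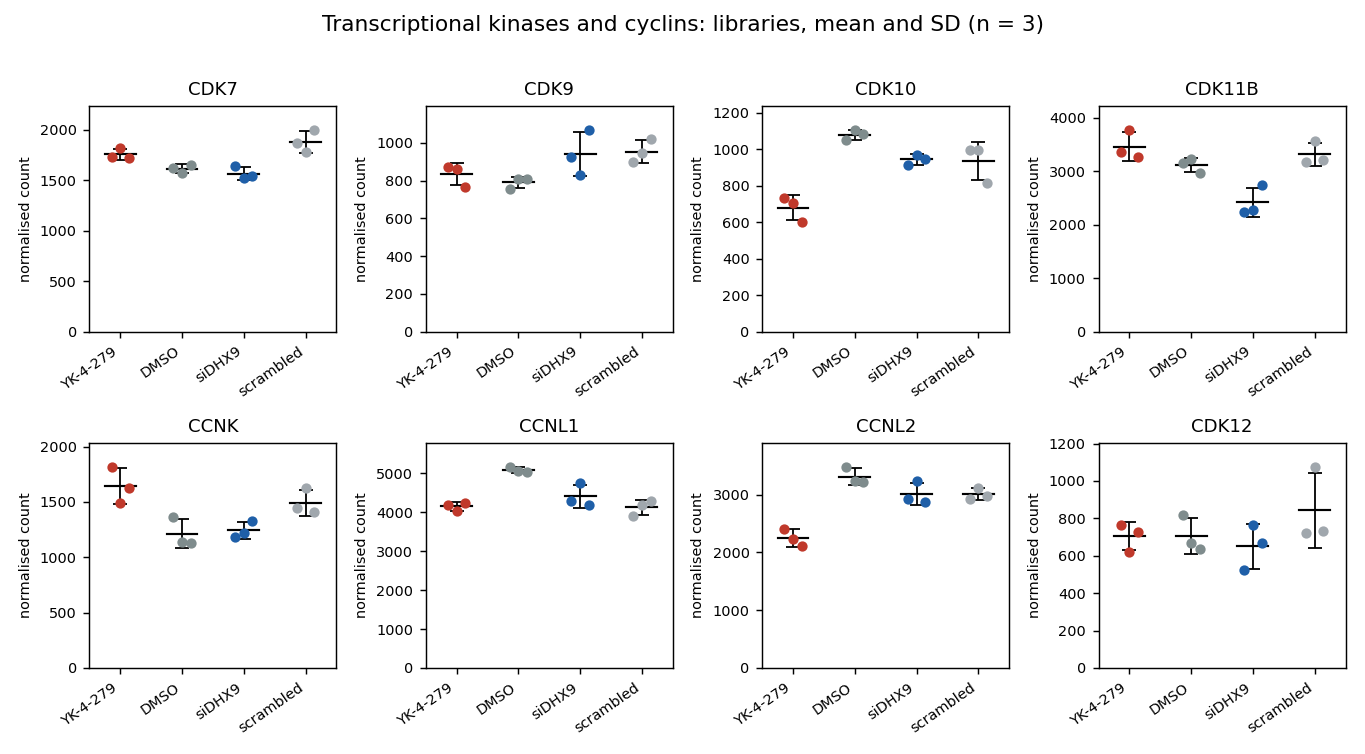
Counts of 8 transcriptional kinases and cyclins (y axis, normalised count from 0) in each library of the 4 groups, with the mean and SD (n = 3) as bars. CDK10, CCNL1 and CCNL2 lie lower and CCNK higher with YK-4-279 than with DMSO, and CDK11B lies lower with siDHX9 than with the scrambled control.

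Of the 9 other kinases and cyclins, CDK16 and CCNY rose with YK-4-279. Cyclin Y is the partner that switches on CDK16. CDK16 had 11605, 11993 and 11777 counts with YK-4-279 and 7900.1, 8866 and 9101 with DMSO, a log2 fold change of 0.45 ± 0.11 (adjusted p 0.0130, limma). CCNY had 2053, 1950.5 and 2027 counts with YK-4-279 and 1544, 1678 and 1638 with DMSO, a log2 fold change of 0.31 ± 0.10 (adjusted p 0.0460, limma). Every treated library of both genes was above every control library. The CCNY call was lost with TMM factors (0.0712), quantile normalisation (0.0800), edgeR (0.0707), a block for the replicate number (0.0755) or no minimum mean (0.0521). It was also lost on leaving out any single YK-4-279 or DMSO library (0.0912 to 0.159), siDHX9 replicate 1 (0.0547) or scrambled replicate 1 (0.0512). The CDK16 call was lost without YK-4-279 replicate 2 (0.0536) or DMSO replicate 1 (0.0668). CDK5, CDK14, CDK17, CDK18, CDK20, CCNG2 and CCNI were not called, at log2 differences of -0.36 to 0.33.

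With siDHX9, 9 of the 42 genes passed the test, 3 higher and 6 lower, where 16.7% of all genes passed (8.75% higher and 7.97% lower). Values did not overlap for 4 genes higher and 13 lower with siDHX9, where 14.9% and 14.4% of all genes did so. CDKN2C rose 1.64-fold and CCNB2 fell 1.37-fold. Of the 12 cell cycle kinases and cyclins 1 was higher and 1 lower, at a median log2 fold change of -0.14. Of the 16 transcriptional ones none was higher and 3 were lower, at a median of -0.27 with 12 of 16 below 0, where the median of all genes was 0.00. The 3 lower ones include CDK11B and the entry that joins CDK11A and CDK11B, which may share reads and so may not be independent. The fit with only the 6 siDHX9 and scrambled libraries called 2 of the 42 genes, CCNB2 and CDKN2C, against 9 with the spread shared over all 12 libraries. Leaving out siDHX9 replicate 2, the library that stood apart, gave 16. Over all 14225 genes, calls numbered 492 with the 6 libraries only, 2378 with the shared spread and 4255 without siDHX9 replicate 2.

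CDKN2C (hg19 chr1:51426417-51440309) encodes p18, an inhibitor of CDK4 and CDK6. It had 2162, 2036 and 2716 counts with siDHX9 and 1393, 1224 and 1595 with the scrambled control, without overlap. The log2 fold change was 0.71 ± 0.11 (adjusted p 0.00133, limma). The related p19 (CDKN2D) had 1120.4, 811 and 1128 counts with siDHX9 and 769, 576 and 834 with the scrambled control; its lowest siDHX9 library overlaps the controls. It just missed the threshold, at 0.49 ± 0.16 (adjusted p 0.0506, limma), and was called without siDHX9 replicate 2 (adjusted p 0.00659), without scrambled replicate 3 (0.0321) and under 5 other settings (0.0242 with DESeq2 to 0.0496 with edgeR). CDK4 itself had 16541, 16329 and 19867 counts with siDHX9 and 13120, 13407 and 15442 with the scrambled control, a log2 fold change of 0.33 ± 0.09 (adjusted p 0.0207, limma). Without siDHX9 replicate 3, scrambled replicate 1 or scrambled replicate 2 the CDK4 adjusted p was 0.0618, 0.0807 or 0.0645.

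Cyclin B2 had 5799, 5649 and 5878 counts with siDHX9 and 8147, 8013 and 7552 with the scrambled control. The 2 groups are well separated, with a log2 fold change of -0.45 ± 0.06 (adjusted p 0.000632, limma), and the call was kept under every alternative run. Cyclin B1 had 18882, 19305 and 19877 counts with siDHX9 and 21421, 21770 and 22633 with the scrambled control. It was lower in every siDHX9 library, but at -0.18 ± 0.06 it missed the threshold narrowly (adjusted p 0.0520, limma). It passed with TMM factors (0.0304), quantile normalisation (0.0181), edgeR (0.0315), DESeq2 (0.0181), a minimum mean of 50 (0.0456) or without siDHX9 replicate 3 (0.0495). CDK2 had 1563, 1712 and 1498 counts with siDHX9 and 1700.5, 1277 and 1647 with the scrambled control. CCNE1 had 246, 259.8 and 225 counts with siDHX9 and 173, 231 and 210.5 with the scrambled control. Both overlapped and were not called, with 95% intervals of -0.18 to 0.29 and -0.05 to 0.56 on the log2 scale. CCNE2 had 559, 822 and 497 counts with siDHX9 and 526, 645 and 841 with the scrambled control, CCNA2 averaged 4229 ± 331 with siDHX9 and 4895 ± 257 with the scrambled control, and CCNF averaged 703 ± 19.9 with siDHX9 and 928 ± 182 with the scrambled control (mean ± SD, n = 3 each). None of these 3 was called, although all siDHX9 values of CCNA2 and CCNF were below the scrambled ones. CCNA2 passed without siDHX9 replicate 2 (0.0138) and with DESeq2 (0.0429), and CCNF with DESeq2 (0.0294). CDKN1C and CDKN3 were not called either, at -0.41 and -0.13, though CDKN1C passed without scrambled replicate 3 (0.0286). Cyclin D2 had 82.8, 45.7 and 77.8 counts with siDHX9 and 155, 125 and 79.8 with the scrambled control, a difference of -0.79 ± 0.26 that was not called (adjusted p 0.0558, limma). It passed without scrambled replicate 3 (0.0163) and with quantile normalisation (0.0490), edgeR (0.0449) or DESeq2 (0.0192). CDK6 had 41.4, 31.1 and 25.9 counts with siDHX9 and 63.1, 35.1 and 41.9 with the scrambled control. p27 had 4377, 3911 and 2939 counts with siDHX9 and 5493, 3621 and 4961 with the scrambled control. CDK6 and p27 each overlapped between the groups and were not called, but p27 passed without scrambled replicate 2 (0.0347). Cyclin D3 had 3535, 1467 and 3511 counts with siDHX9 and 1914, 2380.3 and 2479 with the scrambled control, and its call depended on siDHX9 replicate 2 (adjusted p 0.568 with it and 0.00439 without it, limma).

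Among the transcriptional genes the CDK11 entries and CDK7 were lower with siDHX9. CDK11A and CDK11B are near-identical neighbouring genes with roles in splicing, so how reads were divided between their entries is uncertain. The CDK11B entry had 2244, 2269 and 2735 counts with siDHX9 and 3177, 3569.5 and 3208 with the scrambled control, a log2 fold change of -0.46 ± 0.09 (adjusted p 0.00557, limma). The entry that joins CDK11A and CDK11B had 409.7, 487 and 432 counts with siDHX9 and 613, 661 and 579 with the scrambled control, a log2 fold change of -0.48 ± 0.11 (adjusted p 0.0119, limma). Neither entry overlapped between groups. CDK7 had 1638, 1519 and 1540.1 counts with siDHX9 and 1870, 1776 and 1995 with the scrambled control, a log2 fold change of -0.26 ± 0.08 (adjusted p 0.0325, limma). With the siDHX9 and scrambled libraries alone, the adjusted p was 0.0631 for CDK11B, 0.0789 for the joined entry and 0.177 for CDK7. The joined entry was also lost without siDHX9 replicate 1 (0.0505), and CDK7 without any of YK-4-279 replicate 3, siDHX9 replicate 1 or 3 and scrambled replicate 1 or 3 (0.0504 to 0.0767).

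The other transcriptional genes were not called with siDHX9. CDK8 had 700.4, 719 and 587 counts with siDHX9 and 866, 978 and 750.2 with the scrambled control, lower without overlap at -0.37 ± 0.14 (adjusted p 0.0864, limma). CDK9 had 924, 831 and 1066 counts with siDHX9 and 896, 944 and 1018 with the scrambled control, and CDK12 had 521, 763 and 666 with siDHX9 and 721, 1076 and 734 with the scrambled control. Both overlapped. CCNT1 had 18.6, 25.6 and 16.2 counts with siDHX9 and 24.3, 50.9 and 35.9 with the scrambled control, and CCNK had 1179, 1218 and 1329 with siDHX9 and 1444, 1622 and 1406 with the scrambled control. CCNK was lower in every siDHX9 library, at -0.26 ± 0.10 (adjusted p 0.0989, limma). Without siDHX9 replicate 2, CDK8 (0.0491), CDK12 (0.0452) and CCNT2 (0.0115) came under the threshold, all lower. Without scrambled replicate 3, CDK8 (0.0489) and CDK19 (0.0188) did so, and without scrambled replicate 2, CCNC (0.0433). CCNT2 also passed with DESeq2 (0.02295), with quantile normalisation (0.0489) or without DMSO replicate 3 (0.0489). CDK10, CDK13, CDK19, CCNC, CCNH, CCNL1, CCNL2 and CCNT2 lay between -1.19 and 0.12 with siDHX9; CDK19, CCNT1 and CCNT2, at the low end of that range, are all sparsely counted.

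Of the other kinases and cyclins, CCNG2 and CDK14 fell and CDK5 rose with siDHX9. CCNG2, a cyclin induced in cells that leave the cycle, had 173, 195 and 108 counts with siDHX9 and 345, 225 and 247 with the scrambled control, a log2 fold change of -0.80 ± 0.21 (adjusted p 0.0232, limma). CDK14, a kinase switched on by cyclin Y, had 406, 411 and 367 counts with siDHX9 and 513, 622 and 531 with the scrambled control, a log2 fold change of -0.49 ± 0.11 (adjusted p 0.0103, limma). CDK5, best known in neurons, had 2042, 1785 and 2334 counts with siDHX9 and 1498, 1669 and 1565 with the scrambled control, a log2 fold change of 0.37 ± 0.10 (adjusted p 0.0270, limma). No library overlapped in any of these genes. CDK16, CDK17, CDK18, CDK20, CCNI and CCNY were not called, at log2 differences of -0.25 to 0.25. The CCNG2 call was lost without siDHX9 replicate 3 (0.0872) or scrambled replicate 1 (0.0972), and that of CDK5 without siDHX9 replicate 1 (0.0708) or 3 (0.0977) or scrambled replicate 1 (0.0903).

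The drug effect and the knockdown effect share no libraries, and their difference was tested in the same fit. It passed for 17 of the 42 genes, 7 with the higher value under YK-4-279 and 10 with the lower, where 9.69% of all genes passed (4.4% higher and 5.29% lower). Of the cell cycle kinases and cyclins, 2 of 12 were higher and 5 lower. Of the transcriptional ones, 4 of 16 were higher and 3 lower, and the 4 include both CDK11 entries, which may not be independent. CDK1 differed most, by -1.89 ± 0.11 on the log2 scale (adjusted p 2.20e-06, limma). CDKN2C differed by -0.97 ± 0.16 (adjusted p 0.00257), CCNE2 by -0.98 ± 0.27 (0.0338), CDKN2D by -0.80 ± 0.23 (0.0412) and CCNE1 by -0.78 ± 0.20 (0.0276), all in limma and all lower with the drug relative to the knockdown. In the drug comparison CDKN2C had 1859, 1973 and 1988 counts with YK-4-279 and 2255, 2413 and 2316 with DMSO, and CDKN2D had 449, 559 and 479.5 with YK-4-279 and 689, 575 and 574 with DMSO. Both inhibitors thus lay below their control in 3 of 3 treated libraries with the drug, without a call of their own. The E cyclins were not low with the drug alone. CCNE2 averaged 1147 counts with DMSO, 540 with YK-4-279, 670 with the scrambled control and 626 with siDHX9. CCNE1 averaged 310 counts with DMSO, 215 with YK-4-279, 205 with the scrambled control and 244 with siDHX9. In both genes all scrambled values were below all DMSO values, and the part of this in the difference was not tested.

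In the other direction CCNK differed by 0.70 ± 0.15 (adjusted p 0.0107, limma), CCNB2 by 0.66 ± 0.09 (0.000821) and CDK11B by 0.61 ± 0.13 (0.0114). The other called genes were CDK2, CDK4, CDK10, CCNL1 and CCNL2, lower with the drug relative to the knockdown, and CDK7, CDK14 and the joined CDK11A and CDK11B entry, higher. Of these, the call was lost on leaving out any 1 of 10 libraries for CDK7 (adjusted p up to 0.102), of 8 for CDK14 (0.0955), of 7 for CCNL1 (0.0690) and for the joined entry (0.0756), of 6 for CDK2 (0.0831) and of 5 for CDK4 (0.0612). CCNL1 also missed the threshold with quantile normalisation (0.0543) or a block for the replicate number (0.0501), and CDK14 with no minimum mean (0.05004). CCNB1, which missed the threshold in each comparison alone, differed by 0.35 ± 0.08 (adjusted p 0.0195, limma), and its call was lost without YK-4-279 replicate 2 (0.0527) or 3 (0.0617) or DMSO replicate 2 (0.0628). The calls of CDK1, CCNB2, CDKN2C, CDK10 and CCNL2 were kept in every alternative run. The difference for CCNE2 was lost on leaving out any 1 of 9 libraries (adjusted p 0.0512 to 0.0833), that for CDKN2D likewise (up to 0.104) and that for CCNE1 with any 1 of 6 (up to 0.0755). A block for the replicate number also ended the CCNE2 call (0.0549). For cyclin A2 and cyclin F, lower with YK-4-279, the difference from the knockdown was not called (adjusted p 0.173 and 0.138, limma).

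**Figure D5:**
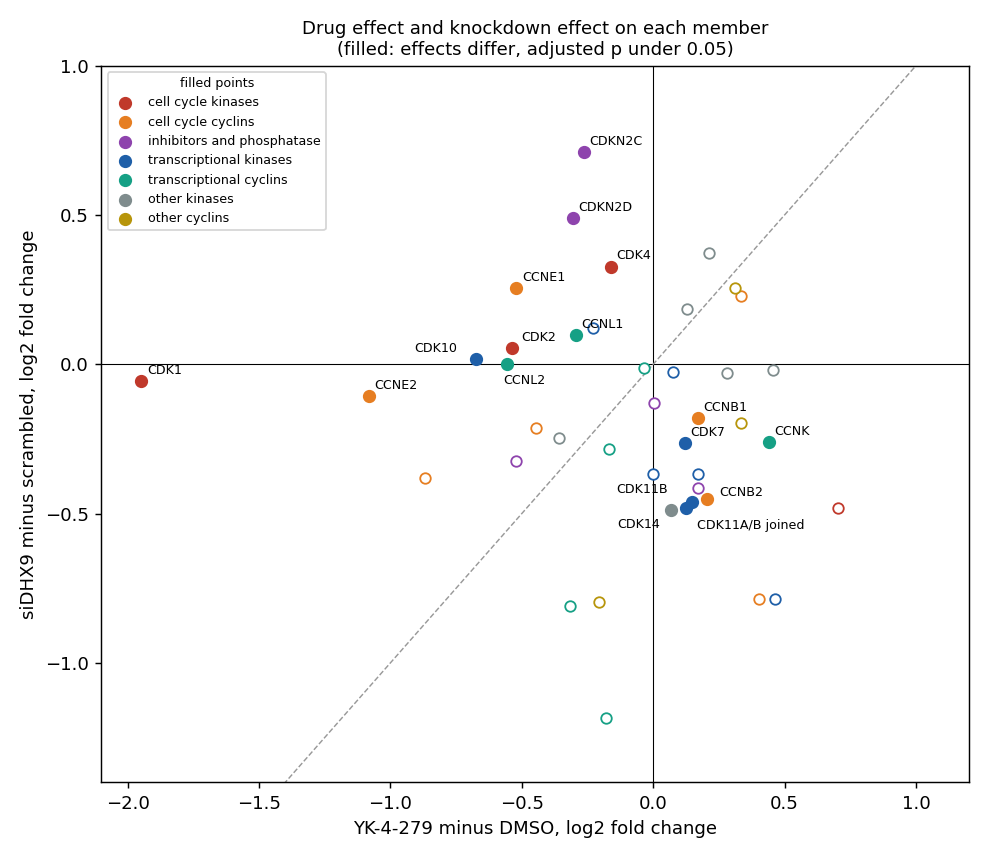
Log2 fold change of each of the 42 genes with YK-4-279 against DMSO (x axis) and with siDHX9 against scrambled (y axis); the dashed line marks equal effects, colours mark roles, and the 17 filled points are those whose effects differ at a limma adjusted p under 0.05. CDK1 lies far to the left at -1.95 and near 0 on the y axis, and CDKN2C lies highest at 0.71.

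The levels in the 2 control groups also differ, and transfection and culture time cannot be told apart there. Scrambled against DMSO, 11 of the 42 genes passed the test, 5 higher and 6 lower, where 18.9% of all genes passed (9.7% higher and 9.22% lower). CCNB2, CCNF, CDK8, CDK19 and CCNG2 were higher in scrambled cells, and CDK4, CCNE1, CCNE2, CDKN2C, CDK13 and CCNL1 were lower there. The call was lost on leaving out any 1 of 9 libraries for CDK4 (adjusted p up to 0.163) and of 5 for CCNB2 (0.0845), CDK13 (0.0853) and CDK19 (0.158), and without 1 to 3 single libraries for CCNE1, CCNE2 and CDK8. Because this comparison shares its scrambled libraries with the knockdown, values are given side by side only. CDKN2C averaged 2305 ± 362 counts with siDHX9, 1404 ± 186 with the scrambled control and 2328 ± 79.9 with DMSO (mean ± SD, n = 3 each). CCNB2 averaged 5775 ± 117 with siDHX9, 7904 ± 312 with the scrambled control and 6743 ± 71.7 with DMSO. CCNG2 averaged 159 ± 45.1 with siDHX9, 272 ± 64.1 with the scrambled control and 138 ± 10.2 with DMSO. For CDKN2C the siDHX9 mean was close to that of DMSO and the scrambled mean was low. With scrambled replicate 3 as the lone scrambled library, the CDKN2C adjusted p was 0.0791 in limma, where the lone library is assumed to vary like the other groups.

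Proteins linked to the same kinases were counted from lists. These held 11 activators and their partners, 12 brakes and their partners, 14 partners of the transcriptional CDKs and 6 further cyclins. The brake list includes LIN subunits of DREAM, listed as partners and not as brakes themselves. With YK-4-279, 1 of the 11 activators was higher and 3 were lower, where 7.33% of all genes were called higher and 6.49% lower. CDC25C, a phosphatase that releases CDK1, averaged 396 ± 25.5 counts with YK-4-279 and 704 ± 49.1 with DMSO (log2 -0.83 ± 0.11, adjusted p 0.000387, limma). CKS1B, the small subunit that docks substrates to CDKs, averaged 11799 ± 546 counts with YK-4-279 and 19789 ± 112 with DMSO (log2 -0.75 ± 0.06, adjusted p 1.24e-05, limma). BORA, an activator of Aurora A and PLK1, was lower by -0.43 ± 0.09 (adjusted p 0.00878, limma) and the mitotic kinase PLK1 higher by 0.45 ± 0.12 (0.0237). Of the 12 genes on the brake list 3 were lower and none higher, against the same shares. WEE1, which phosphorylates and restrains CDK1, averaged 924 ± 65.8 counts with YK-4-279 and 1533 ± 46.7 with DMSO (log2 -0.73 ± 0.11, adjusted p 0.000861, limma). Its relative PKMYT1 was lower by -0.57 ± 0.13 (0.0146), as was the pocket protein RBL1 by -0.60 ± 0.16 (0.0229). The p53 target CDKN1A (p21) averaged 1234 ± 57.5 counts with YK-4-279 and 1121 ± 103 with DMSO and was not called (adjusted p 0.615, limma). The PLK1, PKMYT1 and RBL1 calls were lost on leaving out single YK-4-279 or DMSO libraries, at up to 0.105, 0.0669 and 0.108.

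Of the 14 partners of the transcriptional CDKs, 3 were higher with YK-4-279 and none lower, where 7.33% of all genes were called higher and 6.49% lower. Their median log2 difference was 0.20 and that of all genes 0.02. SUPT5H, a CDK9 substrate in elongation, averaged 8134 ± 153 counts with YK-4-279 and 5912 ± 40.5 with DMSO (log2 0.46 ± 0.09, adjusted p 0.00395, limma). HEXIM1, which holds P-TEFb inactive, averaged 5814 ± 151 counts with YK-4-279 and 4596 ± 86.6 with DMSO (log2 0.34 ± 0.07, adjusted p 0.00909, limma). ELL, an elongation factor, was higher by 0.59 ± 0.18 (0.0403), up to 0.140 with single libraries left out. Cyclin D1 (CCND1), of the further cyclins, averaged 4822 ± 182 counts with YK-4-279 and 3489 ± 223 with DMSO (log2 0.47 ± 0.09, adjusted p 0.00382, limma).

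With siDHX9, 3 of 11 genes on the activator list and 4 of 12 on the brake list were lower. None of either list was higher, where 7.97% of all genes were called lower and 8.75% higher. CDC25C averaged 605 ± 44.8 counts with siDHX9 and 949.5 ± 102 with the scrambled control (log2 -0.65 ± 0.11, adjusted p 0.00193, limma). SKP2, which marks p27 for degradation, was lower by -0.49 ± 0.10 (0.00493) and BORA by -0.39 ± 0.09 (0.0135). The pocket proteins RB1 (-0.64 ± 0.21, adjusted p 0.0471, limma), RBL1 (-0.57 ± 0.16, 0.0259) and RBL2 (-0.52 ± 0.17, 0.0499) and the DREAM subunit LIN52 (-0.40 ± 0.11, 0.0282) were lower, each lost on leaving out single libraries (up to 0.181, 0.10, 0.193 and 0.0923). HEXIM1 was higher by 0.33 ± 0.07 (adjusted p 0.00970, limma), and so was MEPCE, which caps the RNA of the same inhibitory particle, by 0.51 ± 0.16 (0.0396, up to 0.151 with single libraries left out). Cyclin O (CCNO) averaged 997 ± 118 counts with siDHX9 and 622 ± 22.8 with the scrambled control (log2 0.68 ± 0.11, adjusted p 0.00193, limma), while CCND1 was not called (adjusted p 0.568). CDKN1A averaged 1342 ± 364 counts with siDHX9 and 1135 ± 146 with the scrambled control and was not called (adjusted p 0.410, limma), but without siDHX9 replicate 2 it was higher (0.00875).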

How the data were processed

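Libraries of 12 cultures were sequenced. The authors deposited a signal for every gene and library: counts divided by DESeq size factors, per the file headers. The tools were STAR 2.4.0, Picard, SAMtools, FastQC and DESeq with hg19, per the submitters' processing notes. Strand-specific counting is not stated there, and 9 of the 42 genes overlap another named entry.

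Each value was taken to log2 after 1 had been added. Genes with a symbol and a mean of 10 or more entered limma 3.58.1 under R 4.3.3, fitted on all 12 libraries with a mean for each group, a trend and 8 residual degrees of freedom. A gene was called at a Benjamini-Hochberg adjusted p under 0.05, two-sided. Division by the smallest step of a column returned whole reads, within 0.1, for 100% of values. These reads gave depth and were tested with edgeR 4.0.16 and DESeq2 1.42.0, which called 1998 and 2539 genes with YK-4-279, and 2515 and 3195 with siDHX9.

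Other alternatives were the added value, the minimum, TMM and quantile normalisation, a comparison's own libraries only, entries without a symbol, a block for the replicate number, omission of single libraries and, chosen after seeing the data, omission of scrambled replicates 1 and 2 together. Genes named with all library values were the called ones with the largest changes (up to 8 with YK-4-279, 6 with siDHX9 and 6 for the difference) and 14 in any case; CCNA2, CCND3, CCNL1, CDK5, CDK16 and CCNY were added after their values were seen. Lists had up to 4 called genes named. The members and lists were chosen with earlier results of these data known. Promoters of 38 members came from RefSeq (GRCh38.p14); CDK2, CCND2, CCNE2 and CDKN1C had none in the table used.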

Additional observations from a re-analysis of the deposited data

How the results depend on the processing

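Of the 42 genes, no called one changed sign under any alternative. With YK-4-279 the count of all genes was 1965 and became 4270 with its own libraries only; leaving out 1 library gave 858 to 2795 genes and 8 to 16 members (14 in the fit reported). With siDHX9 it was 2378 genes and 9 members. The siDHX9 and scrambled libraries alone gave 492 and 2, and DESeq2 gave 3195 and 15. Leaving out 1 library gave 1244 to 4255 genes and 5 to 16 members. The difference of the effects was called for 1379 genes and 17 members, with DESeq2 for 2097 genes, and with 1 library left out for 762 to 1883 genes and 7 to 19 members. Scrambled against DMSO gave 2692 genes and 11 members, and 1431 to 3485 and 5 to 14 with 1 library left out. Without scrambled replicates 1 and 2, chosen after seeing the data, siDHX9 gave 469 genes and 1 member, the difference 440 and 5, and scrambled against DMSO 339 and 0. These fits have fewer samples; beyond that the cause was not tested. Whether the replicate numbers pair the samples cannot be settled with 3 libraries per group. Deviations of same-numbered libraries correlated at 0.37, 0.14 and -0.05 for YK-4-279 with DMSO and at 0.11, 0.09 and 0.10 for siDHX9 with scrambled. Those of differently numbered libraries ranged from -0.43 to 0.32 and from -0.20 to 0.13. With the replicate number as a block, 12, 8, 14 and 11 members were called with YK-4-279, with siDHX9, for the difference and for scrambled against DMSO. In the same order, 1601, 2118, 1118 and 2430 of all genes were called. CDK6, CDK19, CCNT1 and CCNT2 had few counts, which limits their precision.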
